A study of Mus musculus with 6 samples.

Results

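Txnip, Arrdc1, Arrdc2, Arrdc3 and Arrdc4, which encode alpha-arrestins, and 1700023H06Rik, a noncoding gene that overlaps Arrdc3 on the opposite strand, were followed in cultured mouse hippocampal neurons after a short forskolin treatment. The 6 genes were chosen by symbol, with earlier results of the same forskolin and DMSO libraries known, from a count table of 37411 gene rows. All 6 passed the low-count filter that left 16233 genes for testing. Because the choice rested on the forskolin against DMSO contrast, their values in it are given as a description and support no further statement.

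RNA came from primary hippocampal neurons of newborn (P0) CD-1 IGS mice, an outbred strain, kept for 16 days in vitro. Cultures received 50 µM forskolin or the same volume of the solvent dimethyl sulfoxide (DMSO) for 30 min; forskolin activates adenylyl cyclase and raises cyclic AMP (cAMP), and the series asks which transcripts depend on it. Libraries 1, 2 and 3 were from DMSO and libraries 4, 5 and 6 from forskolin cultures, all of the same strain, age and tissue with no genetic alteration in the labels. Nothing in the labels says whether the libraries came from separate cultures or litters, so p-values measure only the spread between these samples, which may be technical.

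Alpha-arrestins share the arrestin fold with the classical beta-arrestins and carry PPxY motifs through which they recruit NEDD4-family ubiquitin ligases to membrane proteins. Txnip also binds thioredoxin and limits glucose uptake by driving glucose transporters into the cell. Arrdc1 recruits the ESCRT machinery to bud vesicles from the plasma membrane, and Arrdc3 has been linked to the trafficking of beta-adrenergic receptors, which themselves signal through cAMP.

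Total counts per library ran from 28342764 to 47548379. Mitochondrial ribosomal RNA made up 14.0% to 23.7% of counts in DMSO libraries and 26.9% to 33.3% in forskolin libraries (exact two-sided permutation test, p = 0.1, the smallest that 3 against 3 allows). The labelled cell type was checked against 14 neuronal markers, which were all detected and summed to 5224 to 6607 CPM (read counts scaled to library size) in DMSO and 3833 to 6159 CPM in forskolin libraries. Their median log2 fold change was -0.45; edgeR called 1 of them lower, Rbfox3, beside 1.34% of all tested genes, and 7 were below all DMSO libraries in all 3 forskolin libraries, beside 16.2%. The 12 astrocyte markers summed to 8287 to 9521 CPM over all 6 libraries, so the cultures were not purely neuronal. The 12 microglial markers, none at 0 in any library, summed to 23.3 to 35.7 CPM in DMSO libraries, to 246 and 405 CPM in forskolin libraries 4 and 5, and to 25.6 CPM in library 6. All 12 had positive log2 fold changes, with a median of 4.39, and edgeR called none at an adjusted p under 0.05 (11 at unadjusted p under 0.05). The 12 oligodendrocyte lineage markers summed to 845 to 934 CPM in DMSO libraries and to 1159, 1610 and 673 CPM in libraries 4, 5 and 6; the 10 vascular and meningeal markers summed to 94.6 to 283 CPM over all libraries, with Cldn5 at 0 counts in 5 of them. Library 6 also stood apart in its whole profile: over tested genes its log2 CPM correlated at r = 0.983 with DMSO library 3 but at 0.943 and 0.940 with libraries 4 and 5. GC-rich transcripts were lower and GC-poor transcripts higher in all 3 forskolin libraries. Relative to the mean of the DMSO libraries, the median log2 ratio of the tenth of genes richest in GC was -0.33, -0.42 and -0.64 in libraries 4, 5 and 6, against 0.04, 0.05 and -0.10 in libraries 1, 2 and 3. For the tenth poorest in GC it was 0.37, 0.54 and 0.25, against -0.17, -0.10 and 0.22. As a check of the treatment, Fos, an immediate early gene that edgeR called, was at 132 ± 47.1 CPM in DMSO and 727 ± 244 CPM in forskolin (mean ± SD, n = 3). Nr4a1, an orphan nuclear receptor gene, was at 24.5 ± 11.4 and 112 ± 43.8 CPM, above all DMSO libraries in all 3 forskolin libraries but not called (adjusted p = 0.0652). Junb, named after its values were seen, was at 46.2 to 117 CPM in DMSO libraries and at 278, 232 and 35.4 CPM in libraries 4, 5 and 6.

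At the Arrdc3 locus (GRCm38 chr13:80883384-80896042, plus strand), 1700023H06Rik occupies chr13:80884224-80885524 on the minus strand, per GENCODE M21. Its 2 exons hold 1044 bases, lie wholly inside the 3476-base intron 1 of the main Arrdc3 coding transcript, and share 0 exonic bases with Arrdc3. The noncoding transcript starts 571 bases from the start of another Arrdc3 coding transcript and is read away from it. Its splice junction is shown because a read across it can be assigned to the spliced noncoding transcript, whereas a read inside either exon could also come from unspliced Arrdc3 RNA when strand is ignored. The strand setting of the counting is not given in the sources used here, so these 2 sources cannot be told apart in the counts. Lower case marks the last 60 bases of exon 1 (373 bases long) and capitals mark the first 60 bases of exon 2, in the sense of 1700023H06Rik, read from the GENCODE M21 transcript.
1700023H06Rik exon junction: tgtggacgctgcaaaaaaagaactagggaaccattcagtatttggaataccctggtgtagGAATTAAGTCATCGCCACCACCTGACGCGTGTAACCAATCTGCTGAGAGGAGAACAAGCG

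**Figure D1:**
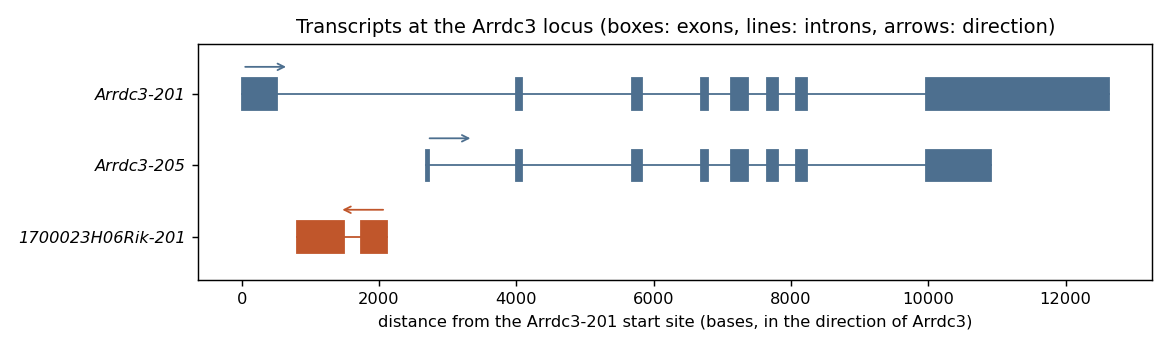
Exons (boxes) and introns (lines) of the main Arrdc3 coding transcript (top), the one with an internal start (middle) and 1700023H06Rik (bottom), by distance in bases from the main Arrdc3 start, with arrows for the direction of transcription. The noncoding exons sit between the 2 Arrdc3 starts, 2685 bases apart, and its own start lies 2114 bases inside Arrdc3.

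Promoter windows of 300 bases (250 before to 50 after the start, RefSeq, GRCm38.p6) are printed for the genes whose levels moved together across libraries: Txnip with Arrdc4, and Arrdc3 at its upstream start and at the internal start that faces 1700023H06Rik. Capitals mark matches, on either strand, to the motifs searched. These were the cAMP response element core TGACG (20.8% of 32851 promoter windows), the full element TGACGTCA (1.79%), the E-box CACGTG (7.15%), a pair of CACGNG boxes 5 bases apart as in carbohydrate response elements (0.0487%), the FOXO core TGTTTAC (3.65%) and the CCAAT box (37.4%). The core lies within the full element, so their matches can overlap. The motifs were picked after the promoter sequences had been seen.
Txnip, chr3:96557707-96558006, plus strand: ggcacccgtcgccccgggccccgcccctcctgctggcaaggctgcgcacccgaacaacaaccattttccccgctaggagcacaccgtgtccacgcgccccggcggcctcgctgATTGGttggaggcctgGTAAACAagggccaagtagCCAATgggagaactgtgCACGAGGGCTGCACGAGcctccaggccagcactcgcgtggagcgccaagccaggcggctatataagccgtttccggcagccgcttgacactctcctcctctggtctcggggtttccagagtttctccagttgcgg
Arrdc4, chr7:68749189-68749488, minus strand: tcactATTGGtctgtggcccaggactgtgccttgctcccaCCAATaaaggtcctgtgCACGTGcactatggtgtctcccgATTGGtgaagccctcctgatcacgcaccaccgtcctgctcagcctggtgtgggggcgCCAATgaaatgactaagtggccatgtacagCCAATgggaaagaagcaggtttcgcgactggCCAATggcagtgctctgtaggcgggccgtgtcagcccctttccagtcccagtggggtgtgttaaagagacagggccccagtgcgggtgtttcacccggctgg
Arrdc3 upstream start, chr13:80883134-80883433, plus strand: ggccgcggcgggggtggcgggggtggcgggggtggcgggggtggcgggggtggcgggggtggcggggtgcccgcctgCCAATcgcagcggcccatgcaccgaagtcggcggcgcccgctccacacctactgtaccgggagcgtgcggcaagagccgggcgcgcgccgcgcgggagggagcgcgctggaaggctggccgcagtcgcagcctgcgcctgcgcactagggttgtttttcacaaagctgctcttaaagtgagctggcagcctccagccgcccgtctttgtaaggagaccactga
Arrdc3 internal start, chr13:80885845-80886144, plus strand: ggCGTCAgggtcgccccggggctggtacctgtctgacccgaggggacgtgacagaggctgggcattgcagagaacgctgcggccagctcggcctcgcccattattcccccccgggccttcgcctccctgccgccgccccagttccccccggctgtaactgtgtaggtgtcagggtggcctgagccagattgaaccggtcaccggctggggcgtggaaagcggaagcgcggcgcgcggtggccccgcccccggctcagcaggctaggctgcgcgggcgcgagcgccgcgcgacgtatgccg

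The Txnip window held the paired boxes 85 bases before the start, which 16 of the 32851 windows hold, together with a FOXO core and 2 CCAAT boxes. The Arrdc4 window held a single E-box 193 bases before the start and 6 CCAAT boxes. In Arrdc3 the upstream window held 1 CCAAT box, and the internal window held 1 TGACG core, 248 bases before the start. The Arrdc2 window (chr8:70839671-70839970, minus strand) held 3 CCAAT boxes, and the Arrdc1 window (chr2:24935232-24935531, minus strand) held none of the motifs. No window of these genes held the full cAMP response element. A match is a description of letters and not a binding site.

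Txnip and Arrdc3 were the most abundant alpha-arrestins per kilobase of transcript in the DMSO libraries. On this scale of CPM per kilobase, Txnip stood at 23.7 ± 8.94, Arrdc3 at 19.4 ± 1.10, Arrdc4 at 6.98 ± 1.34, Arrdc2 at 5.58 ± 0.501, Arrdc1 at 2.52 ± 0.261 and 1700023H06Rik at 2.49 ± 0.401 (mean ± SD, n = 3). The ranges of neighbours in this order overlapped for Txnip with Arrdc3, Arrdc4 with Arrdc2, and Arrdc1 with 1700023H06Rik, and did not overlap for Arrdc3 with Arrdc4 and Arrdc2 with Arrdc1. Within each library Arrdc4 was nonetheless above Arrdc2. In the forskolin libraries the order of means became Txnip at 40.2 ± 21, Arrdc3 at 31.9 ± 6.04, Arrdc4 at 8.78 ± 1.51, 1700023H06Rik at 8.08 ± 1.5, Arrdc2 at 3.35 ± 0.377 and Arrdc1 at 2.02 ± 0.377. The noncoding gene overlapped Arrdc1 in DMSO and Arrdc4 in forskolin libraries, where Txnip and Arrdc3 also overlapped and the other neighbours did not. Arrdc5, a further family member, had 0 counts in 5 libraries and 1 count in library 5.

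**Figure D2:**
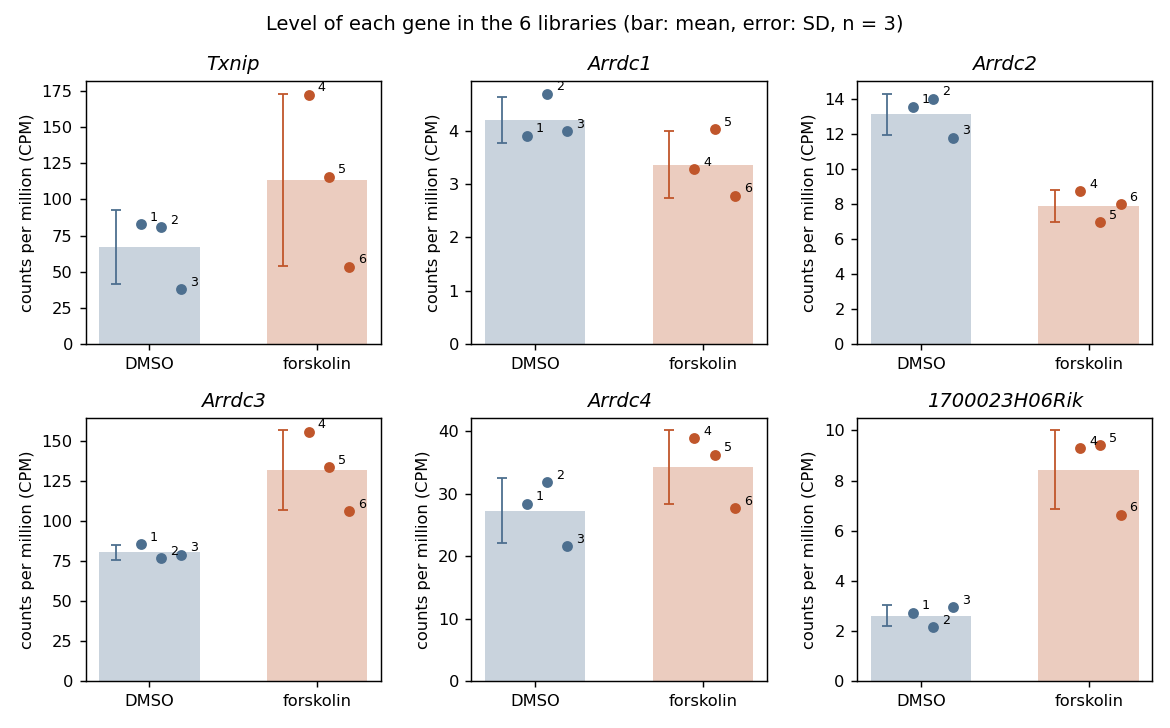
CPM of each gene in DMSO libraries 1 to 3 and forskolin libraries 4 to 6 (numbered points), with the group mean (bar) and SD (error bar). 1700023H06Rik, Arrdc3 and Arrdc2 are separated between groups, and Txnip spans 53.4 to 172 CPM among forskolin libraries.

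The noncoding gene 1700023H06Rik rose 3.24-fold on average with forskolin. It had 87, 65 and 105 counts in DMSO libraries 1, 2 and 3, and 437, 320 and 222 counts in forskolin libraries 4, 5 and 6. Scaled to library size these were 2.72, 2.13 and 2.95 CPM against 9.28, 9.40 and 6.63 CPM. All 3 forskolin libraries were above all DMSO libraries, and library 6, where microglial markers summed to 25.6 CPM, was the lowest of the 3 at 2.55 times the DMSO mean. The part of other cell types in the difference was not tested. The fitted log2 fold change was 1.70 ± 0.24 (SE; edgeR quasi-likelihood, adjusted p = 0.0371), a 3.24-fold difference that ranked 91 of 16233 by p. It was the single gene called among the 6; edgeR called 1.51% of all tested genes, and 0.172% as higher. With each library's trend on GC content removed, its transcript being at 42.9% GC, the log2 ratios to the DMSO mean were 1.60, 1.53 and 1.13 in libraries 4, 5 and 6, and -0.17 to 0.15 in DMSO libraries. The log2 fold change after that correction was 1.45 and the call was lost (adjusted p = 0.162), as it was without any 1 of libraries 1 to 5 (adjusted p 0.136 to 0.299, log2 fold change 1.59 to 1.78); edgeR called 0 genes of the whole table in each of those fits.

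Relative to Arrdc3, the gene it lies in, 1700023H06Rik gave 3.18, 2.78 and 3.73 counts per 100 Arrdc3 counts in DMSO libraries 1, 2 and 3. It gave 5.96, 7.04 and 6.26 in forskolin libraries 4, 5 and 6, with no overlap between groups. Per base of transcript this was 11.0% to 14.8% of the Arrdc3 level in DMSO and 23.6% to 27.9% in forskolin libraries. As a background, 108 tested noncoding genes lay wholly inside a tested coding gene on the opposite strand with no shared exonic base; for the 2 with several such hosts the median over hosts was used. Their median log2 fold change was 0.36, that of the hosts was -0.14, and the median difference was 0.40. The difference for 1700023H06Rik over Arrdc3 was 0.98, rank 19 of 108. In 13 of the 108 (12%) the noncoding gene was above all DMSO libraries in all 3 forskolin libraries, beside 10.3% of all tested genes, and in 2 of these a host was too. EdgeR called 1 of the 108, as higher, and this was the chosen gene itself. Over all tested genes edgeR called 0.172% as higher and 1.51% in either direction. Because the single call is the chosen gene, the count is not a result about the other intronic genes. Whether unspliced RNA of the hosts contributed was not tested.

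Arrdc3, which directs ubiquitin ligases to membrane cargo including adrenergic receptors, was higher in every forskolin library. It stood at 85.5, 76.7 and 78.9 CPM in DMSO libraries 1, 2 and 3, and at 156, 134 and 106 CPM in forskolin libraries 4, 5 and 6. Library 6 was the lowest of the 3, at 1.32 times the DMSO mean. The groups did not overlap, which held in the higher direction for 10.3% of all tested genes. The log2 fold change was 0.71 ± 0.16 and did not pass the edgeR threshold (adjusted p = 0.0852). Its transcript is poor in GC (40.6%, percentile 8.31 among tested genes), the class that was higher in forskolin libraries as a whole. After removal of the GC trend its log2 fold change was 0.31 (adjusted p = 0.481), and library 5 at 0.20 and library 6 at 0.12 on the log2 ratio scale then lay below DMSO library 1 at 0.23. Without library 6 it was 0.83 (adjusted p = 0.00405), in a fit that called 33.6% of all tested genes. DESeq2 gave 0.73 (adjusted p = 0.00127), where 11.9% of genes were called. Adgrv1, an adhesion receptor gene 199026 bases away, was the nearest coding neighbour on the far side. Its log2 fold change was 0.94 ± 0.43 (adjusted p = 0.253). Only libraries 4 and 5 exceeded its DMSO range of 15.5 to 26.2 CPM, reaching 55.5 and 43.2 CPM. Library 6, at 16.6 CPM, stayed inside that range, whereas Arrdc3 in library 6 was above every DMSO library.

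Arrdc2, a less studied member that responds to glucocorticoids in other tissues, was lower in every forskolin library. It stood at 13.6, 14.0 and 11.8 CPM in DMSO libraries 1, 2 and 3, and at 8.73, 6.96 and 8.0 CPM in forskolin libraries 4, 5 and 6. Library 6 was at 0.609 of the DMSO mean. The groups did not overlap, which held in the lower direction for 16.2% of all tested genes. The log2 fold change was -0.73 ± 0.16 (adjusted p = 0.0855). Its transcript is rich in GC (59.4%, percentile 94.2), the class that was lower in forskolin libraries as a whole. After removal of the GC trend its log2 fold change was -0.27 (adjusted p = 0.491) and library 6, at -0.04 on the log2 ratio scale, lay above DMSO library 3 at -0.06. Without library 6 the log2 fold change was -0.76 (adjusted p = 0.0178), in the fit that called 33.6% of all tested genes. DESeq2 gave -0.72 (adjusted p = 0.00312), where 11.9% of genes were called. The adjacent gene Kcnn1, a potassium channel gene 2329 bases away on the same strand, stood at a log2 fold change of -0.69 ± 0.18 (adjusted p = 0.120), also lower in all 3 forskolin libraries. The Kcnn1 transcript has a GC content of 57.0%, and its value with the GC trend removed is not given here. As a share of the summed CPM per kilobase of the 5 alpha-arrestins, Arrdc2 held 8.83%, 9.31% and 11.0% with DMSO but 3.25%, 3.37% and 6.0% with forskolin.

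Txnip, the thioredoxin-binding member, varied most between libraries of the same group. It stood at 82.7, 80.8 and 38.0 CPM in DMSO libraries 1, 2 and 3, and at 172, 115 and 53.4 CPM in forskolin libraries 4, 5 and 6. Libraries 4 and 5 were above all DMSO libraries, but library 6 was at 0.796 of the DMSO mean, so the groups overlapped. The log2 fold change was 0.76 ± 0.46 (adjusted p = 0.361). It was 0.33 without library 4 (adjusted p = 0.771) and 1.08 without library 6 (adjusted p = 0.0532), the extremes when 1 library was left out. The 2 libraries high in Txnip were those with microglial markers at 246 and 405 CPM, and in library 6, with 25.6 CPM of those markers, Txnip was not raised over the DMSO mean. The part of other cell types in the Txnip difference was not tested, and in bulk RNA fewer cells of a type and less RNA per cell cannot be told apart. Of the 3201 distinct 31-base words in Txnip transcripts, 17.4% also occur in other genes, nearly all in the antisense gene Gm15441, which had a mean of 6.67 counts per library.

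Arrdc4, which like Txnip responds to glucose in many cell types, followed Txnip across the libraries (r = 0.96 on log2 CPM over 6 libraries, a description). It stood at 28.4, 31.9 and 21.6 CPM in DMSO libraries 1, 2 and 3, and at 38.9, 36.3 and 27.7 CPM in forskolin libraries 4, 5 and 6. Libraries 4 and 5 were above the DMSO range and library 6 was within it. The log2 fold change was 0.33 ± 0.19 (adjusted p = 0.346).

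Arrdc1, which recruits ESCRT proteins for vesicle budding, was the lowest coding member. It stood at 3.90, 4.69 and 3.98 CPM in DMSO libraries 1, 2 and 3, and at 3.27, 4.03 and 2.78 CPM in forskolin libraries 4, 5 and 6. Library 5 lay within the DMSO range and the other 2 forskolin libraries below it. The log2 fold change was -0.32 ± 0.23 (adjusted p = 0.430) at a transcript GC content of 58.6%, and it changed sign to 0.08 (adjusted p = 0.859) with the GC trend removed. Its coding neighbours Ehmt1 and Zmynd19 were at -0.10 ± 0.17 and -0.24 ± 0.15, while the distant neighbours Nr2f1 of Arrdc3 and Nr2f2 of Arrdc4 were at -0.28 ± 0.12 and -0.31 ± 0.15, none of them called.

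**Figure D3:**
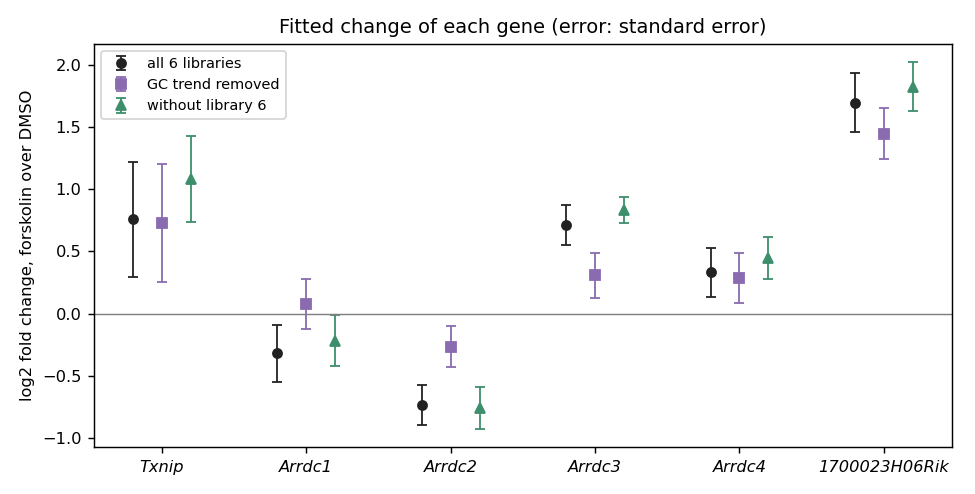
Log2 fold change (forskolin over DMSO) with its SE for each gene in edgeR with all 6 libraries, with the GC trend removed, and without library 6. The value of 1700023H06Rik stays between 1.45 and 1.83, while Arrdc2 and Arrdc3 move to -0.27 and 0.31 with the GC trend removed.

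The summed level of the 5 alpha-arrestins was 65.3, 64.1 and 45.4 CPM per kilobase with DMSO (libraries 1, 2 and 3). With forskolin it was 114, 87.8 and 56.7 (libraries 4, 5 and 6). Libraries 4 and 5 were above the DMSO range and library 6 was within it. Txnip made up 44.8%, 44.6% and 29.5% of that sum in DMSO and 53.3%, 46.5% and 33.3% in forskolin libraries, so its share overlapped between groups. Library 3 and library 6, whose whole profiles were alike, had the lowest Txnip share and the highest Arrdc3 share of their groups.

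**Figure D4:**
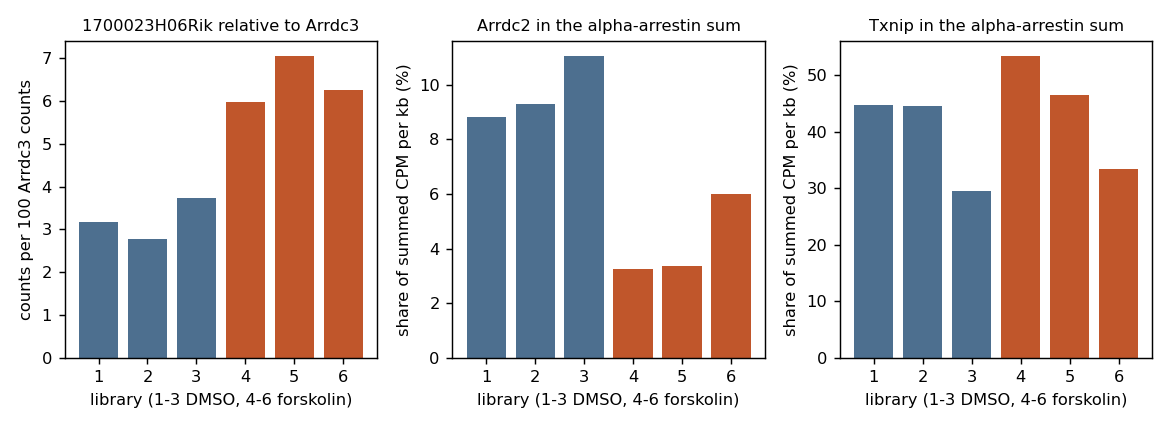
Bars per library (1 to 3 DMSO, 4 to 6 forskolin) of 1700023H06Rik counts per 100 Arrdc3 counts, and of the shares of Arrdc2 and Txnip in the summed alpha-arrestin CPM per kilobase. The first measure is 2.78 to 3.73 in DMSO and 5.96 to 7.04 in forskolin libraries, the Arrdc2 share is lower in all 3 forskolin libraries, and the Txnip share overlaps.

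The genes most like each member were taken by Pearson's r of log2 CPM over the 6 libraries, among about 11306 genes with a mean of at least 5 CPM. The points share library, depth and base composition, and can share the difference between groups. The genes named have the highest r of that whole pool, so high values arise by selection. These are descriptions with no p. For 1700023H06Rik they were Ptgs2 (r = 0.993), the inducible cyclooxygenase gene, Wdhd1 (0.989), Crem (0.988), which encodes a cAMP-responsive transcription factor, and Pus3 (0.985). For Arrdc3 they were Nup153 (0.991), Siah2 (0.991), Micu2 (0.990) and Trim39 (0.988). For Arrdc2 they were Dpysl4, Ranbp3, Timm23 and Pex14, with r of 0.996 to 0.997. For Txnip they were Pskh1, Suox, Nmb and Ech1, with r of 0.981 to 0.990. For Arrdc4 they were Snrpg, Ccdc53, 9930104L06Rik and Txnip, with r of 0.958 to 0.976, and for Arrdc1 Tnip1, Ssbp3, Banp and Kndc1, with r of 0.970 to 0.982. Between members, r was 0.95 for Arrdc3 with 1700023H06Rik and -0.95 for Arrdc2 with 1700023H06Rik.

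Genes of the partners through which alpha-arrestins act are given beside the 1.51% that edgeR called over all tested genes, at which lists of this size would hold few or no calls. Of the classical arrestins, 0 of 3 tested were called, with a median log2 fold change of -0.21 beside 0.02 over all tested genes; Arrb1 was at -0.25 ± 0.26 and Arrb2 at -0.19 ± 0.14. Of the retromer genes, which recycle cargo from endosomes through arrestin-like Vps26 proteins, 0 of 5 were called and the median was 0.08, with Vps35 at 0.36 ± 0.16 and Vps26b at -0.22 ± 0.18. Of the NEDD4-family ligases and adaptors, 0 of 11 were called and the median was 0.09. Nedd4 itself, at 809 ± 62.1 CPM in DMSO and 957 ± 78.1 CPM in forskolin, was higher in all 3 forskolin libraries (0.24 ± 0.14, adjusted p = 0.354), and its adaptor Ndfip1 was at -0.12 ± 0.23. Wwp1, a ligase of the same family chosen after its value was seen, had the list's highest log2 fold change at 0.90 ± 0.29 (adjusted p = 0.158). Its levels were 35.1 and 53.4 CPM in libraries 4 and 5, but 26.1 CPM in library 6, close to DMSO library 3 at 25.9 CPM. Of the ESCRT genes that Arrdc1 works with, 0 of 8 were called and the median was -0.03; Chmp4b was at -0.32 ± 0.10 (adjusted p = 0.144) and Vps4a at -0.21 ± 0.19.

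Genes on the metabolic side of Txnip are given beside the same 1.51%. Of the thioredoxin system, 0 of 14 were called, with a median log2 fold change of 0.05; the peroxide-reducing Prdx6 was at 0.47 ± 0.31 and Prdx2 at -0.18 ± 0.14. Of the glucose sensing and uptake genes, 0 of 10 were called and the median was 0.20. Hk1, the main neuronal hexokinase gene, went from 350 ± 38.5 to 240 ± 40.7 CPM and was lower in all 3 forskolin libraries (-0.54 ± 0.16, adjusted p = 0.144), and the neuronal glucose transporter gene Slc2a3 was at -0.24 ± 0.31. Mlxip and Mlxipl, chosen after their values were seen, encode the glucose-sensing activators of Txnip; Mlxip was at 20.8 and 19.1 CPM in DMSO and forskolin, and Mlxipl at 0.189 and 0.288 CPM. Of the beta-adrenergic receptors and their kinases, 0 of 7 were called and the median was -0.01. Adrbk1, which encodes a beta-adrenergic receptor kinase and was named after its value was seen because it has no transcript length to rank by, had the most negative log2 fold change of that list. It went from 144 ± 6.78 to 94.8 ± 12.8 CPM and was lower in all 3 forskolin libraries (-0.60 ± 0.13, adjusted p = 0.0817). The receptor gene Adrb1 was at 15.8 ± 4.96 and 15.7 ± 6.94 CPM, and the kinase gene Grk6 was at -0.33 ± 0.12 (adjusted p = 0.175).

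Among FOXO and steroid receptor genes, families with known control over alpha-arrestin genes, Foxo6 fell. This brain-enriched FOXO gene went from 29.9 ± 1.42 CPM in DMSO to 8.65 ± 0.516 CPM in forskolin libraries (log2 fold change -1.79 ± 0.12, edgeR adjusted p = 0.0188), with a transcript GC content of 69.1%. It was the single call among 6 FOXO and steroid receptor genes, whose median was -0.11, beside 1.34% of all tested genes called lower. With the GC trend removed the Foxo6 log2 fold change was -0.59 ± 0.25 (adjusted p = 0.421), in a fit where edgeR called 0 genes in all. Of 12 glucocorticoid and FOXO target genes 0 were called, beside 1.51% of all tested genes, with a median of -0.03. In that list Tsc22d3 was at -0.05 ± 0.20 and Ddit4 at -0.49 ± 0.18. Of 16 cAMP response genes edgeR called 4 as higher, beside 0.172% of all tested genes. On the log2 scale these were Fos at 2.46 ± 0.36 (adjusted p = 0.0375), Fosb at 3.38 ± 0.52 (0.0402), Nr4a2 at 2.53 ± 0.31 (0.0297) and Dusp1 at 2.52 ± 0.29 (0.0276). Log2 fold changes were positive for 15 of the 16, beside 51.8% of all tested genes. In 9 all 3 forskolin libraries were above all DMSO libraries, beside 10.3%. The cAMP response list had a median of 1.34, and 1700023H06Rik at 1.70 lay above that median while Arrdc3 at 0.71 lay below it. None of these 5 calls was made without any 1 of libraries 1 to 5, and without library 6 edgeR called 12 of the 16 cAMP response genes, in the fit that called 33.6% of all genes.

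For the lists with 0 calls in edgeR, the number at an unadjusted p under 0.05 was 0 for classical arrestins, 0 for retromer, 2 for NEDD4-family genes, 3 for ESCRT, 3 for the thioredoxin system, 1 for glucose genes, 2 for adrenergic genes and 2 for glucocorticoid and FOXO targets; it was 22.3% of all tested genes. DESeq2 called 2 NEDD4-family, 2 ESCRT, 2 thioredoxin and 1 adrenergic gene and 0 in the other 4, beside 11.9% of all genes it gave an adjusted p. Limma-voom called 0 in all 8 lists, beside 1.34% of all tested genes. Its form with library quality weights called 1 to 7 per list, beside 41.9% of all tested genes.

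**Figure D5:**
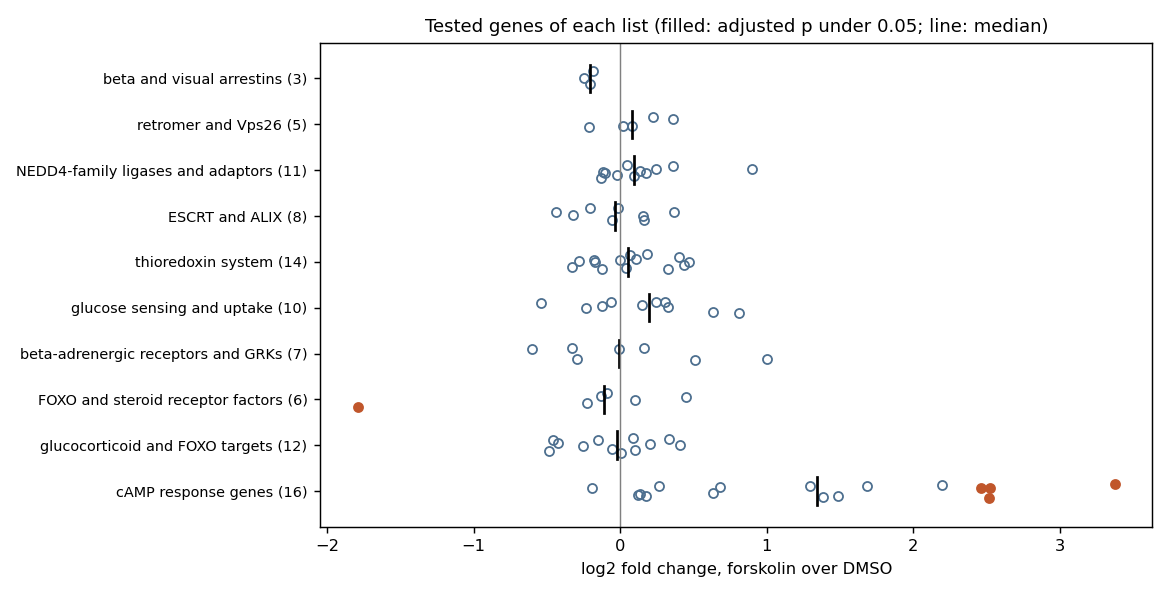
Log2 fold change of each tested gene in 10 lists (number tested in parentheses), with the list median as a line and filled points for an edgeR adjusted p under 0.05. The filled points are Foxo6 and 4 cAMP response genes, and the medians of the other lists lie between -0.21 and 0.20.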

How the data were processed

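Illumina libraries were made from Trizol-extracted RNA (labels' protocols). The authors deposited whole-number counts per gene symbol, 1 column per library. Their deposited comparison table holds log2 fold changes, a test score, p-values and the mean of normalised counts (a signal), per the file headers. Salmon, DESeq and GRCm38 are named in the submitters' processing notes, with no role or version; annotation and strand setting are not given in the sources used here.

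Counts were filtered with filterByExpr (minimum count 10, minimum total 15), scaled by TMM and tested with edgeR 4.0.16 (glmQLFit, glmQLFTest) in R 4.3.3, with Benjamini-Hochberg adjustment over all tested genes and a threshold of 0.05. CPM used TMM-scaled library sizes. SE is the absolute log2 fold change over the square root of F. Log2 CPM for correlations used a prior count of 2. Alternatives (18) included DESeq2 1.42.0, limma 3.58.1, other scalings and filters, removal of each library's lowess trend on GC content (span 0.3), and leaving out each library. The script was tested on simulated data. GENCODE M21 transcripts (GRCm38) gave lengths, GC content and positions by symbol; RefSeq gave promoters for 5 of the 6 genes. The table of comparisons was used only to look up members and list genes.

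The 6 genes and the lists were chosen with earlier results of these data known. Genes named were the 6 members, from each list the called genes (up to 4) or else the 2 highest per kilobase (genes without a matched transcript length could not be ranked), the 4 genes most like each member, and annotated neighbours. Fos and Nr4a1 were named as a check of the treatment. The markers Rbfox3 and Cldn5 were named after their values were seen. Any others are said to be chosen after their values were seen. The comparison with other intronic noncoding genes and the motif set were also chosen after seeing the data. Library numbers 1 to 6 are not shared between groups, so nothing was paired. The members' counts ran from 65 to 8101 per library, and the spread between libraries sets their precision.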

Additional observations from a re-analysis of the deposited data

How the results depend on the processing

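No paired analysis was possible because the library numbers 1 to 6 are not shared between the groups. Over 18 alternatives, Txnip, Arrdc2, Arrdc3, Arrdc4 and 1700023H06Rik kept their direction; Txnip and Arrdc4 were called in none. Arrdc1 turned to 0.076 with the GC trend removed and to 0.10 with library 6 also left out. For 1700023H06Rik the call was lost with the GC trend removed (1.45). Arrdc2 and Arrdc3 were called by DESeq2 (-0.72 and 0.73) and with library quality weights (-0.77 and 0.83). With 1 library left out, log2 fold changes ran from 1.59 to 1.83 for 1700023H06Rik, -0.82 to -0.62 for Arrdc2 and 0.57 to 0.83 for Arrdc3; Arrdc2 and Arrdc3 were called without library 6. The number of the 6 genes called was 3 with DESeq2, 3 with quality weights, 0 with the GC trend removed, and 0 to 3 with 1 library left out. With DESeq2 the calls were 2 NEDD4-family, 2 ESCRT, 2 thioredoxin, 1 adrenergic, 1 FOXO and steroid receptor and 8 cAMP response genes. With quality weights they were 1 classical arrestin, 1 retromer, 4 NEDD4-family, 4 ESCRT, 7 thioredoxin, 2 glucose, 5 adrenergic, 2 FOXO and steroid receptor, 3 glucocorticoid and FOXO target and 13 cAMP response genes. With the GC trend removed the calls were 0 in the FOXO and steroid receptor list and 0 in the cAMP response list. In that fit the log2 fold changes were 2.56 for Fos, 3.62 for Fosb, 2.48 for Nr4a2, 2.68 for Dusp1 and -0.59 for Foxo6. With library 6 also left out the calls were 1, 3, 4, 2, 5, 3, 3, 3, 3 and 12 in the order of lists given for quality weights. With 1 library left out the ranges were 0 to 1 for classical arrestins, 0 to 1 for retromer, 0 to 4 for NEDD4-family, 0 to 4 for ESCRT, 0 to 6 for thioredoxin, 0 to 3 for glucose, 0 to 5 for adrenergic, 0 to 1 for FOXO and steroid receptor, 0 to 1 for glucocorticoid and FOXO target, and 0 to 12 for cAMP response genes. Over all genes edgeR called 245, 28 higher and 217 lower (3619 at unadjusted p under 0.05), against 1775 by DESeq2 (796 higher, 979 lower), 6795 with quality weights, 137 with RLE factors, 102 with upper-quartile factors, 0 with the GC trend removed (1947 unadjusted), 5432 with library 6 also left out, 5698 without library 6 and 0 without any 1 of libraries 1 to 5 (1945 to 3216 unadjusted). The cause of these differences was not tested.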

Other observations

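None of the 6 genes was among the 132 genes of the authors' deposited table as used here, whose smallest log2 fold change is 1.501 and smallest mean normalised count 126. DESeq2 run here on the counts gave 1700023H06Rik a log2 fold change of 1.71, an adjusted p of 4.38e-09 and a mean normalised count of 193. From the lists, 7 genes were in that table: Dusp1, Fos, Fosb, Junb, Nr4a1, Nr4a2 and Sik1.

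The coding sequences of the 5 alpha-arrestins were 60.1% to 65.4% identical in pairwise alignment. Outside Txnip, few 31-base words were shared with other genes: 10 of 6291 in Arrdc3 and 0 in Arrdc1, Arrdc2, Arrdc4 and 1700023H06Rik.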
